A study of Mus musculus with 24 samples.

Results

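*Sbspon* and 6 related genes were followed in LSK-SLAM cells of young and old mice. The genes were chosen by name as secreted proteins with a thrombospondin type 1 repeat and as thrombospondins: *Sbspon*, *Spon1*, *Spon2*, *Thbs1*, *Thbs2*, *Thbs3* and *Thbs4*. The table of normalized read counts used here held a row for 6 of these 7 genes, out of 18762 genes in all, and *Thbs2* was not analysed here. Averaged over the mice, 5 of the 6 reached 10 normalized read counts, the minimum for a test, as did 12354 genes in all, and *Spon2* stayed below it. The family was put together with the age difference of *Sbspon* in these data already known. For that reason every difference between the ages in its members is given as a description and without a test.

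LSK-SLAM cells are bone marrow cells negative for lineage markers and positive for Sca-1 and c-Kit, narrowed further by SLAM family surface proteins, and are enriched for haematopoietic stem cells. They were sorted from 5 young (4 to 5 months) and 7 old (20 to 22 months) mice, with ages as in the labels. The authors' figure legend for RNA-seq of LSK-SLAM cells gives higher ages for both groups. All 12 animals were Wt C57BL/6, and the labels name no transgene, deletion or treatment in either group. Mice are numbered as in the labels, within each age, and each was counted as 1 sample although it has 2 label entries. The label of each mouse also ends in the letter A (young mice 1 and 2, old mice 1, 5, 6 and 7) or B (young mice 3, 4 and 5, old mice 2, 3 and 4), whose meaning is not given in the sources used here.

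Thrombospondins are secreted calcium-binding glycoproteins of the extracellular matrix that form trimers or pentamers and bind integrins, CD36, CD47 and proteoglycans on cell surfaces. The type 1 repeat is a small disulphide-bonded fold with a layer of tryptophans. It occurs in many secreted and adhesive proteins beyond the thrombospondins and often carries sugars added to its tryptophans and to a serine or threonine. Thrombospondin 1, stored in platelet granules, releases TGF-beta from its latent complex through these repeats. TGF-beta is in turn a known brake on the division of haematopoietic stem cells.

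The tryptophan and cysteine pattern of the repeat sets the members apart, so its coding sequence is shown for those that hold it and were measured. A search of the coding sequences of GENCODE vM21 (GRCm38) for tryptophan, 2 residues, tryptophan, 2 residues, cysteine, 3 residues and cysteine found 1 match in *Sbspon*, 5 in *Spon1*, 1 in *Spon2* and 3 in *Thbs1*. This spacing was set after the sequences had been seen. The longest coding transcript of *Thbs3* and of *Thbs4*, the thrombospondins that form pentamers and are known to lack type 1 repeats, held none. Over all 21866 protein-coding genes the pattern occurred in 45 (0.206%), and among the 51 other type 1 repeat genes of the table in 33 (64.7%). The first match of each gene is given below, 33 bases on the coding strand from 5′ to 3′, with the tryptophan and cysteine codons in capitals.
*Sbspon*: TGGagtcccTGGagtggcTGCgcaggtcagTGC
*Spon1*: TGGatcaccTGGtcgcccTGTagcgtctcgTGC
*Spon2*: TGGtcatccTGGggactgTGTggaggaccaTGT
*Thbs1*: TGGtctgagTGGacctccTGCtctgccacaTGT
In *Sbspon*, whose protein joins a somatomedin B domain to 1 such repeat, these were codons 80 to 90 of 264. In *Thbs1* they were codons 386 to 396 of 1171, in *Spon1* codons 507 to 517 of 807 and in *Spon2* codons 282 to 292 of 330.

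Reads on genes, recovered from the deposited values, numbered 2049091 to 5118507 in young and 861047 to 5004774 in old mice. Mice with letter A had 861047 to 3106243 and mice with letter B 3233516 to 5118507, so that the letter and the depth cannot be told apart. The limit that a count of 0 allows, 3 reads, corresponded to normalized read counts of 0.583 to 3.69, and every value of a member lay above it within its own library. Among the markers of the sort, *Kit* had a mean of 1508 and *Ly6a*, which encodes Sca-1, of 100.04 normalized read counts. A list of 7 surface marker genes, called surface markers below, summed to 1724 to 2909 in young and 982 to 2874 in old mice. Its lowest sum was that of old mouse 5, whose library held 1133194 reads. Besides *Kit*, *Ly6a* and *Slamf1* the list holds *Cd48*, which the sort selects against, and *Cd34*, *Flt3* and *Ptprc*, which the sort did not use. The 15 lineage markers in the table summed to 142 to 496 normalized read counts in young and 106 to 2043 in old mice, with *Cd3e* at 0 in at least 1 mouse and the highest sums in old mice 6 (2043) and 5 (889.5).

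*Sbspon* was the member with the widest range, from 7.05 to 132 normalized read counts. The young mice 1 to 5 had 20.2, 23.6, 7.65, 9.03 and 7.05. The old mice 1 to 7 had 73.7, 91.6, 132, 62.8, 21.3, 73.7 and 49.2. Thus 6 of the 7 old mice lay above every young mouse, while old mouse 5 lay within the young range, between young mice 1 and 2. The young mean was 13.5 ± 7.78 (SD, n = 5). The old mean was 72.1 ± 34.6 (SD, n = 7), higher by a ratio of 5.34. The difference on the log2(normalized read count + 1) scale was 2.33 with a standard error of 0.39 from limma, which fits a linear model to each gene and pools information on its variance over genes. Of all genes tested, 0.0971% had an adjusted p under 0.05 and were higher in old mice. Whether a member is among these genes is not given, because the family was chosen with the age difference of *Sbspon* already known.

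**Figure D1:**
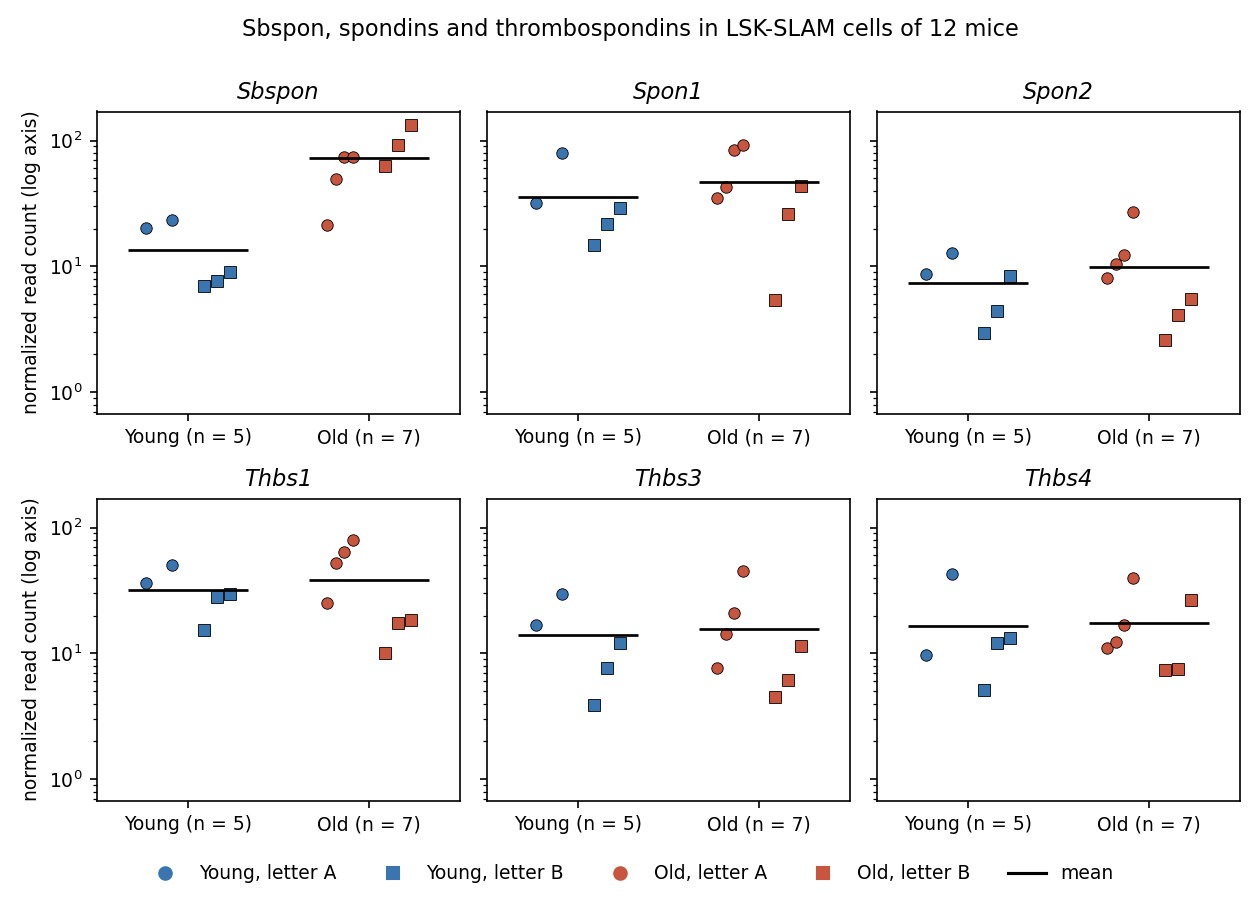
Normalized read counts of the 6 genes (log axis) in LSK-SLAM cells of 5 young (blue) and 7 old (red) mice, with circles for letter A, squares for letter B and a bar at the mean of each age. *Sbspon* is the gene whose old mice, other than mouse 5 at 21.3, lie above all its young mice, and in the other 5 genes the ages overlap.

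Counting error was small beside that spread. *Sbspon* was counted with 24 to 65 reads in young and 27 to 405 reads in old mice. The exact Poisson intervals (95%, counting error only) reached from 4.52 to 31.1 normalized read counts over the young mice. For old mouse 5, with 27 reads, the interval was 14.0 to 31.0, and for old mouse 7, the shallowest library with 40 reads, 35.1 to 67.0. The lowest bound among the other 5 old mice was 56.1. Old mouse 5 therefore overlapped young mice 1 and 2 within counting error, and the other 6 old mice did not overlap any young mouse.

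**Figure D2:**
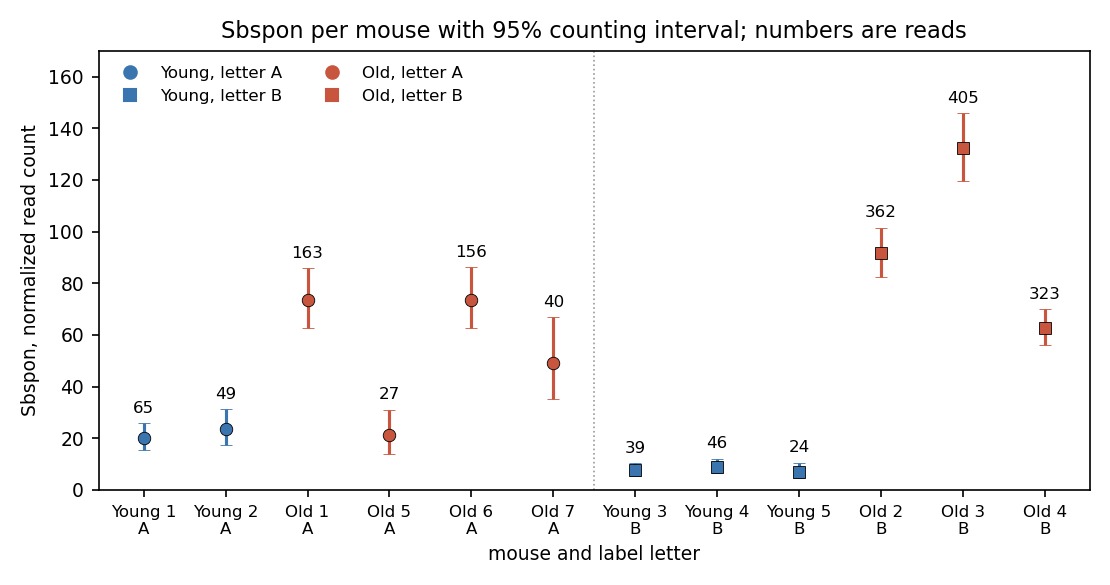
*Sbspon* in normalized read counts for each mouse, ordered by label letter and age, with the exact 95% Poisson interval as the error bar and the number of reads above it. Young mice with letter B lie between 7.05 and 9.03, those with letter A at 20.2 and 23.6, and old mice between 21.3 and 132.

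Within each letter, *Sbspon* also had a higher mean in old than in young mice. With letter B, the young mice averaged 7.91 ± 1.01 (SD, n = 3) and the old mice 95.5 ± 34.9 (SD, n = 3), a ratio of 12.1. All 3 old mice lay above all 3 young mice, an arrangement that 6.72% of all genes tested showed in these 6 mice. With letter A, the young mice averaged 21.9 ± 2.36 (SD, n = 2) and the old mice 54.5 ± 24.9 (SD, n = 4), a ratio of 2.49. On the log2 scale the difference was 3.38 (standard error 0.34) in letter B and 1.13 (standard error 0.44) in letter A, and it was 2.32 (standard error 0.35) with the letter as a covariate. Whether the 2 letters differ in this was not tested, because the age contrast was known when the gene was chosen. In order of level, young mice with letter B were followed by young mice with letter A, old mice with letter A and old mice with letter B. Young mice with letter B lay below all others, while each of the later groups overlapped the next.

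Reads of *Sbspon* cannot be assigned to it with certainty. The gene lies on the minus strand at chr1:15853862-15892722 (GRCm38) with 2748 bases of exon. *Gm37509*, a gene on the opposite strand, overlaps 72.8% of these bases, and 72.4% of the 50-base words in *Sbspon* transcripts also occur in it. Whether reads were counted by strand is not stated, and *Gm37509* was not analysed here, so that the 2 genes cannot be told apart. For the other members the shared part was small: 1.89% of the words of *Thbs1* (with *Gm29233*), 3.54% of those of *Thbs3* (with *Mtx1*) and none for *Spon1*, *Spon2* and *Thbs4*. On the same build *Spon1* lies at chr7:113765998-114043370 (plus strand, 10382 bases of exon) and *Spon2* at chr5:33198184-33218455 (minus strand, 2947 bases of exon). *Thbs1* lies at chr2:118111876-118127133 (plus strand, 6073 bases of exon), *Thbs3* at chr3:89215180-89226837 (plus strand, 4823 bases of exon) and *Thbs4* at chr13:92751590-92794818 (minus strand, 3289 bases of exon).

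The spondins did not share the separation seen for *Sbspon*. *Spon1*, which encodes F-spondin, a matrix protein first known from the floor plate of the neural tube, had 31.7, 79.8, 21.8, 14.9 and 29.1 normalized read counts in young mice 1 to 5. Its values in old mice 1 to 7 were 35.3, 26.3, 43.4, 5.44, 84.5, 42.5 and 92.2. The ages overlapped, with the lowest value of all in old mouse 4 and the highest in old mouse 7. The means were 35.5 ± 25.6 in young (SD, n = 5) and 47.1 ± 31.0 in old mice (SD, n = 7), and the log2 difference was 0.26 with a standard error of 0.53. *Spon2*, which encodes mindin, a matrix protein that binds bacterial surfaces and integrins, was the lowest member, with 8 to 43 reads per mouse. It had 12.8, 8.65, 2.94, 8.44 and 4.41 normalized read counts in young mice 1 to 5 and 8.14, 5.57, 2.61, 4.08, 26.8, 10.4 and 12.3 in old mice 1 to 7. Old mouse 5 was the highest and old mouse 3 the lowest, with means of 7.44 ± 3.88 (SD, n = 5) and 9.99 ± 8.18 (SD, n = 7). Without the minimum of 10, its log2 difference was 0.22 with a standard error of 0.58.

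Among the thrombospondins, *Thbs1* was the highest per length. It had 36.4, 49.997, 28.3, 15.3 and 29.7 normalized read counts in young mice 1 to 5 and 25.3, 17.5, 18.3, 10.1, 52.1, 79.8 and 63.9 in old mice 1 to 7. The 3 highest values belonged to old mice with letter A and the lowest to an old mouse with letter B, so that the old mice spread to both sides of the young mice. Its log2 difference between the ages was 0.02 with a standard error of 0.45. *Thbs3* and *Thbs4*, which encode pentameric thrombospondins of cartilage, tendon and muscle, also overlapped between the ages. *Thbs3* had 16.8, 29.8, 12.2, 3.92 and 7.64 normalized read counts in young mice 1 to 5 and 7.68, 11.4, 6.20, 4.47, 45.0, 14.2 and 20.9 in old mice 1 to 7. It averaged 14.1 ± 10.04 normalized read counts in the 5 young mice (SD) and 15.7 ± 14.1 in the 7 old mice (SD), with a log2 difference of 0.06 and a standard error of 0.57. The values of *Thbs4* were 9.64, 42.8, 13.1, 5.10 and 12.05 in young mice 1 to 5 and 16.7, 7.34, 26.8, 7.58, 39.5, 12.3 and 11.1 in old mice 1 to 7. It averaged 16.5 ± 14.99 in the 5 young mice (SD) and 17.3 ± 11.8 in the 7 old mice (SD), with a log2 difference of 0.17 and a standard error of 0.51. In *Thbs4* young mouse 2 (42.8) and old mouse 5 (39.5) were far above most other mice, and in *Thbs3* these same mice were the highest of their age, at 29.8 and 45.0.

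Sequence length changes the order of these genes, so levels between them were compared as normalized read counts per kilobase of exon. Over all mice *Sbspon* had 17.3 ± 14.5 (SD, n = 12), *Thbs1* 5.85 ± 3.55, *Thbs4* 5.17 ± 3.82, *Spon1* 4.07 ± 2.72, *Thbs3* 3.11 ± 2.498 and *Spon2* 3.03 ± 2.24, all per kilobase. From *Thbs1* down, each neighbour in this order differed by less than 1 SD. In young mice *Sbspon* came after *Thbs1* and *Thbs4*, at 4.91 ± 2.83 per kilobase (SD, n = 5), below their 5.26 ± 2.09 and 5.03 ± 4.56 by less than their spread. In old mice it led with 26.2 ± 12.6 per kilobase (SD, n = 7), ahead of *Thbs1* at 6.28 ± 4.44. Relative to the 18262 genes with a length and a read, the level per kilobase of *Sbspon* was above 52.6% of genes in young and above 92.4% in old mice. The same figure for *Thbs1* was 54.5% in young and 58.0% in old mice.

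Expressed as a share of the summed level per kilobase of the 6 genes, *Sbspon* made up 15.1 to 27.1% in young mice. In old mice with letter B its share was 73.3 to 77.0%, and in old mice 1, 6 and 7 it was 61.2, 49.4 and 36.4%. Old mouse 5 had the lowest share of all mice, 14.1%, with the highest sum of the other 5 genes, 47.1 per kilobase. Across the 12 mice the other members varied together more closely than with *Sbspon*. Pearson's r of the log2 values was 0.45 to 0.81 in the 6 pairs among *Spon1*, *Thbs1*, *Thbs3* and *Thbs4*, and -0.08 to 0.09 in the 4 pairs of these with *Sbspon*. These points share library depth and the label letter, and r is given as a description.

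The label letter was not used to choose the family, and mice with letter B were therefore compared with those with letter A in a limma model that also held age. *Thbs1* was lower in letter B, with a log2 difference of -1.36 (standard error 0.29, 95% interval -1.95 to -0.76, adjusted p = 0.00150). In *Thbs1* every letter A mouse but old mouse 1 (25.3) lay above every letter B mouse, whose highest value was 29.7. Its mean was 51.3 ± 19.3 normalized read counts (SD, n = 6) in letter A and 19.8 ± 7.63 (SD, n = 6) in letter B. *Spon1* was lower by a log2 difference of -1.43 (standard error 0.36, 95% interval -2.17 to -0.70, adjusted p = 0.00428), from 61.0 ± 27.4 to 23.5 ± 12.9 normalized read counts (SD, n = 6 each). In the same way *Thbs3* had 22.4 ± 13.3 in letter A and 7.63 ± 3.48 in letter B (SD, n = 6 each), a log2 difference of -1.37 (standard error 0.43, 95% interval -2.26 to -0.48, adjusted p = 0.0163). Its call was lost without young mouse 2 (-1.23, adjusted p = 0.0702) and without old mouse 5 (-1.14, adjusted p = 0.0535). In letter B its mean lies below the minimum of 10, so that *Thbs3* was tested only through its level in letter A.

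*Spon2*, in the fit without a minimum, had a log2 difference of -1.29 (standard error 0.46, 95% interval -2.24 to -0.34), from 13.2 ± 6.94 to 4.67 ± 2.13 normalized read counts (SD, n = 6 each), with an adjusted p of 0.0341 over the 18275 genes of that fit. *Thbs4*, at -0.76 (standard error 0.44, 95% interval -1.65 to 0.13, adjusted p = 0.171), and *Sbspon* did not pass the threshold. In *Sbspon* the difference was -0.04 (standard error 0.35, 95% interval -0.76 to 0.67, adjusted p = 0.938), and it was 0.25 after rescaling by median ratios, a normalization that moved the median of all genes by 0.33. On that scale *Thbs1* (-1.06), *Spon1* (-1.14) and *Thbs3* (-1.09) kept an adjusted p under 0.05. The 3 members called of the 5 tested include *Thbs3*, which reached the minimum only through letter A. This count stands against 25.6% of all genes tested that were lower in letter B. Among the 7555 genes with means of 10 to 50 normalized read counts, the range that holds all 5 members tested, the share was 40.3%. The same minimum over all mice applied to these genes. Of genes with means of 200 or more, 1.03% were lower and 52.3% higher in letter B. Markers of other cells had letter differences too: with an adjusted p under 0.05, 6 of the 11 lineage markers tested were lower in letter B (median log2 difference -1.36), 5 of the 8 stromal and bone markers (-1.04), 4 of the 6 monocyte and macrophage markers (-1.003) and 2 of the 6 endothelial markers (-0.27). Markers of megakaryocytes and platelets had a median of 0.33 instead, with 1 of the 7 tested lower and 2 higher in letter B at such a p. After rescaling by median ratios 4 of the 11 lineage, 4 of the 8 stromal and bone, 3 of the 6 monocyte and macrophage and 2 of the 6 endothelial markers were called lower. The share of all genes called lower was then 19.3%. Called higher were 1 stromal and bone marker, 2 endothelial markers and 3 of the 7 megakaryocyte and platelet markers. The part of depth and of such cells in these differences was not tested.

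**Figure D3:**
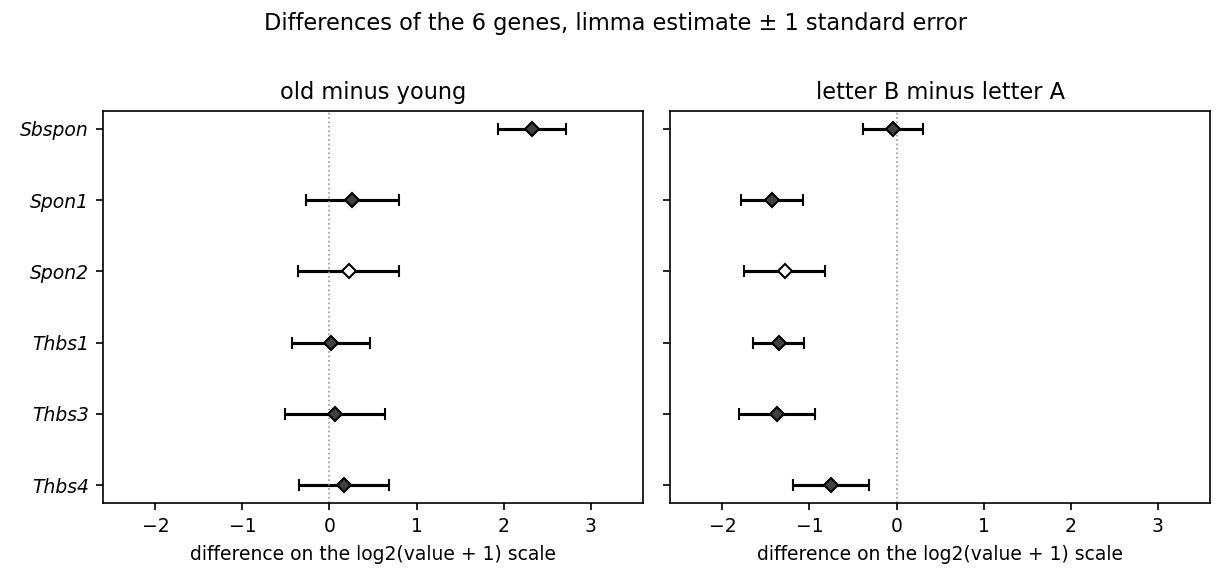
Differences of the 6 genes on the log2(normalized read count + 1) scale, old minus young on the left and letter B minus letter A on the right, as the limma estimate with 1 standard error; the open symbol of *Spon2* comes from the fit without a minimum. *Sbspon* lies at 2.33 for age and -0.04 for the letter, and *Spon1*, *Thbs1* and *Thbs3* lie near 0 for age and between -1.43 and -1.36 for the letter.

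The pathway around these proteins was described with 4 lists, 95 genes in the table and 89 tested, of which none had an adjusted p under 0.05 between the ages in limma. An unadjusted p under 0.05 was found for 4 of the 89 (4.49%), against 3.95% of all genes tested, while edgeR called none and DESeq2 called *Itgb3*. The median log2 difference of the 89 genes was 0.10, and that of all genes -0.02.

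Receptors and partners of the thrombospondins comprised 17 genes, all tested, with a median log2 difference of 0.07 between the ages. *Itgb3*, the beta chain of the vitronectin receptor and of the platelet fibrinogen receptor, had the largest difference. It averaged 107 ± 9.73 normalized read counts in the 5 young mice (SD) and 223 ± 70.8 in the 7 old mice (SD), a log2 difference of 0.999 (standard error 0.21, adjusted p = 0.105). It passed the threshold without old mouse 5 (adjusted p = 0.00839), with the letter as a covariate (adjusted p = 0.000958), within letter B alone (adjusted p = 1.68e-05) and in DESeq2 (adjusted p = 0.000635). In the other 22 of 26 alternatives it did not pass, among them rescaling by median ratios (adjusted p = 0.877), limma without the trend (adjusted p = 0.348) and letter A alone (adjusted p = 0.9999). *Itga3*, a laminin-binding integrin chain, and *Sdc4*, a heparan sulphate proteoglycan, had log2 differences of 0.66 and 0.54, neither of which passed the threshold. The highest levels per kilobase were those of *Calr* (159), the calcium-binding chaperone calreticulin, *Itgb1* (61.7) and *Itga6* (46.4). *Calr* had a log2 difference of 0.07, *Itgb1* of -0.14 and *Itga6*, a laminin-binding chain, of 0.44.

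Other genes whose proteins carry type 1 repeats included the ADAMTS proteases, the CCN and R-spondin families, the UNC5 receptors and complement components. The table held 51 of them, 45 were tested, and the median log2 difference between the ages was 0.10, with 27 of the 45 above 0. The largest were *Adamts19* (0.88, standard error 0.55), *Adgrb3* (0.84, standard error 0.44), an adhesion receptor, and *C8b* (0.59, standard error 0.65), a chain of complement component C8. The highest levels per kilobase belonged to *Thsd1* (14.2), *Adamts10* (13.1) and *Unc5a* (10.7). The level per kilobase of *Sbspon* was above these in old mice (26.2) and below them in young mice (4.91). Between the letters 37 of the 45 genes had an adjusted p under 0.05 and were lower in letter B, where 25.6% of all genes and 40.3% of those with means of 10 to 50 were, and 1 was higher with such a p. The median log2 difference was -1.38, against -0.09 for all genes and -0.68 for genes with means of 10 to 50. After rescaling by median ratios 31 of 39 were called lower, against 19.3% of all genes, and 1 higher. The minimum applied to the mean over all mice, so that genes could pass it through letter A alone, as *Thbs3* did. How many of these genes did so was not counted.

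Genes that add sugars to the repeat or supply GDP-fucose numbered 10, all tested, and had a median log2 difference of 0.13 between the ages. Among them were *B3glct*, which adds glucose to the O-linked fucose (0.33, standard error 0.19), *Fpgt* (0.38, standard error 0.24), *Slc35c1*, the Golgi transporter of GDP-fucose (0.22, standard error 0.21), *Slc35c2* (-0.35, standard error 0.20), and *Dpy19l3*, which mannosylates tryptophans of the repeat and had 195 ± 55.5 normalized read counts in young and 191 ± 38.9 in old mice. Genes of latent TGF-beta storage and activation numbered 17, all tested, with a median of 0.06. *Ltbp4*, a protein that binds latent TGF-beta in the matrix, had a log2 difference of 0.75 (standard error 0.26, adjusted p = 0.780), *Lrrc32*, a membrane anchor of latent TGF-beta, of -0.56 (standard error 0.50) and *Itgb6*, a chain of an activating integrin, of 0.47 (standard error 0.47). The receptors *Tgfbr2* (0.14) and *Tgfbr3* (0.13) and the signal transducer *Smad3* (0.06) had the highest levels per kilobase, 21.1, 32.1 and 34.5.

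**Figure D4:**
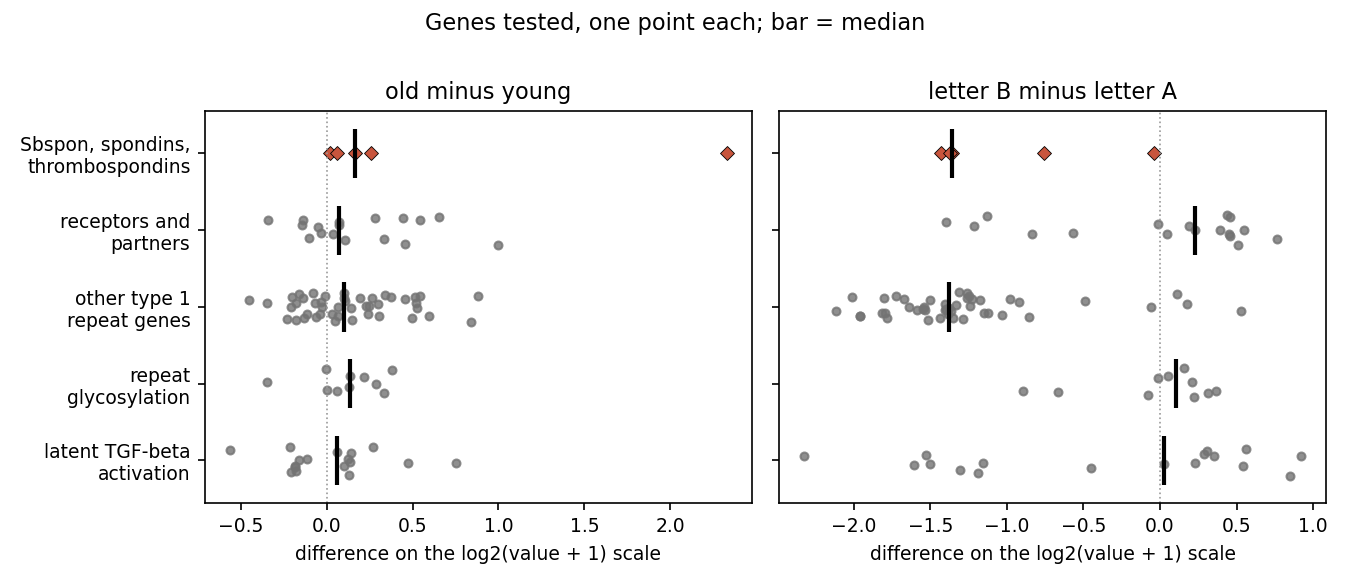
Differences of single genes on the log2(normalized read count + 1) scale, old minus young on the left and letter B minus letter A on the right, for the 5 members tested (red) and the tested genes of the 4 lists (grey), with a bar at each median. For age the list medians lie between 0.06 and 0.13, with *Sbspon* at 2.33 as the farthest point; for the letter the other type 1 repeat genes have a median of -1.38.

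Genes of other cell types were set beside these values. Of the markers of megakaryocytes and platelets, cells known for *Thbs1*, *Mmrn1* was at 0 in all mice. The other markers of this list in the table had reads in every mouse. Of the 7 tested, 5 had a log2 difference above 0 between the ages, with a median of 0.09. *Pf4*, which encodes a platelet chemokine, averaged 41.0 ± 26.4 normalized read counts in the 5 young mice (SD) and 14.6 ± 6.22 in the 7 old mice (SD) with an adjusted p of 0.796. Stromal and bone markers summed to 331 to 522 in young and 278 to 538 in old mice, led per kilobase by *Runx2* and *Pdgfrb*, with *Bglap*, *Ibsp* and *Acta2* at 0 in at least 1 mouse. Endothelial markers, led by *Tek* and *Pecam1*, summed to 302 to 396 and 301 to 390, and monocyte and macrophage markers, led by *Lyz2* and *Ly6c2*, to 223 to 320 and 182 to 760. Of the lineage markers *S100a9* and *S100a8* had the highest levels per kilobase. Of the marker genes tested in these lists and among the surface markers, none had an adjusted p under 0.05 between the ages in limma. An unadjusted p under 0.05 was found for 5 of them, a larger share than the 3.95% of all genes tested. These were 2 of the 6 surface markers tested, 2 of the 7 megakaryocyte and platelet markers and 1 of the 6 endothelial markers. None of the 11 lineage, 8 stromal and bone and 6 monocyte and macrophage markers was among them. Both edgeR and DESeq2 called *Cd34*, a surface marker that the sort did not use, named here after its values were seen (182 normalized read counts in young and 84.5 in old mice). In limma *Cd34* also passed with the letter as a covariate (-0.99, adjusted p = 0.00856), with a minimum mean of 5 (adjusted p = 0.0493), and without young mouse 2 (adjusted p = 0.00722) or old mouse 5 (adjusted p = 0.0369). In letter A alone *S100a9* passed (3.06, adjusted p = 0.00719). In letter B alone *Cd34* (-1.10), *Pf4* (-2.11), *Vwf* (1.002) and *Slamf1* (0.88) passed, the last 2 also named after their values were seen. Fewer cells of a type and less RNA per cell cannot be told apart in these bulk samples, and the part of such cells in the values of *Sbspon* was not tested.

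The genes with a pattern most like that of *Sbspon* were found by Pearson's r of log2(normalized read count + 1) over the 12 mice. They were *Plscr2* (r = 0.94), a phospholipid scramblase family gene, *Enpp5* (0.93), *Gda* (0.93), which encodes guanine deaminase, *Cpne8* (0.91), a copine, and *Dnm3* (0.91), a dynamin. *Gda* averaged 169 ± 27.0 normalized read counts in the 5 young mice (SD) and 478 ± 142 in the 7 old mice (SD), and *Enpp5* 85.1 ± 10.6 and 219 ± 64.1. In both genes the lowest old value, 206 for *Gda* and 90.8 for *Enpp5*, was that of old mouse 5, as in *Sbspon*. After the mean of each age had been taken out, the highest r belonged to *Tmem126b* (0.96), an assembly factor of respiratory complex I, *Soat1* (0.91), which esterifies cholesterol, *Slf2* (0.86), *Slc23a2* (0.85), a vitamin C transporter, and *Gpd1l* (0.85). Of these 5 genes *Soat1* also had a high r without that step, 0.84, and *Gpd1l* had -0.05. No member was among the genes most like *Sbspon*. The 12 points share depth and letter, and these values are the highest of 12353 genes, so that they serve as a description.

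**Figure D5:**
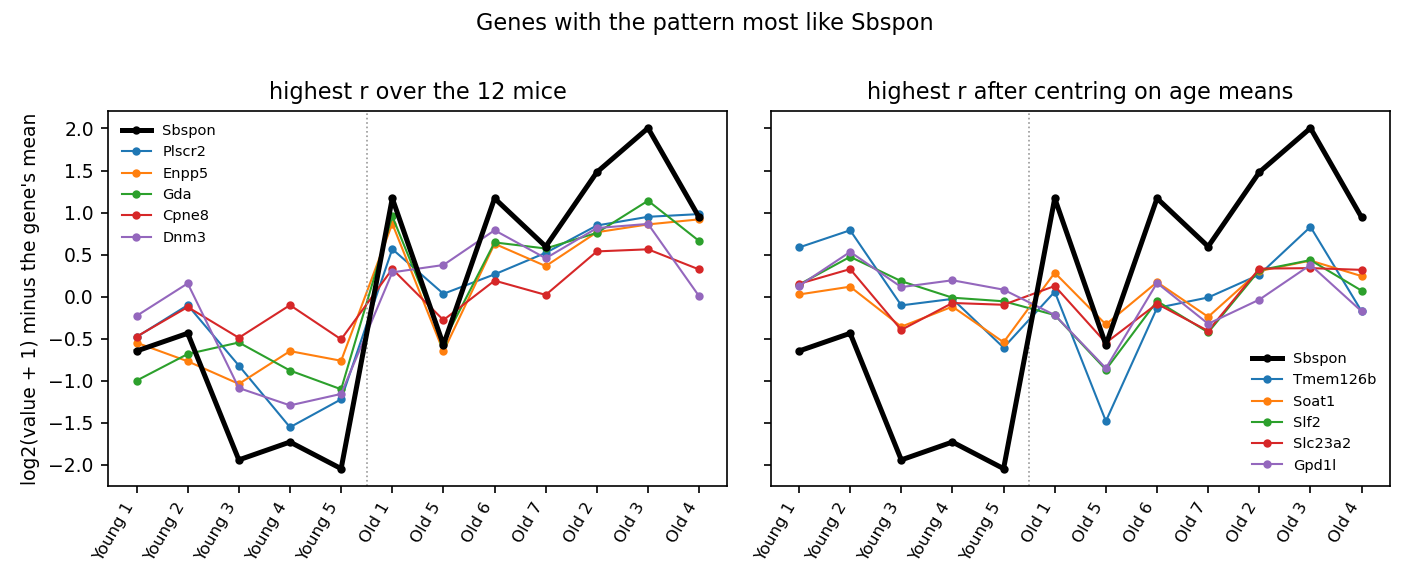
Log2(normalized read count + 1) minus each gene's mean over the mice, for *Sbspon* (black) and the 5 genes with the highest r over all 12 mice (left) or after centring on the age means (right), with mice ordered by age and then label letter. On the left the genes lie below their mean in most young mice and above it in most old mice, with a dip in old mouse 5 in all but *Dnm3*; on the right they vary with *Sbspon* within each age.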

How the data were processed

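RNA of LSK-SLAM cells was depleted of ribosomal RNA and made into libraries with the TotalScript kit. The submitters' processing notes name FastQC 0.11.8, STAR 2.5.4b, edgeR 3.24.3 and mm10; the counting tool, its annotation and its use of strand are not given in the sources used here. The authors deposited 1 signal per gene and mouse, normalized read counts, in which the reads of a gene are divided by an effective library size and put on a common scale. Their table of their own comparison (log2 fold change, log2 CPM, likelihood ratio, p and FDR) was not used. Whole reads were recovered as multiples of what 1 read is worth in each mouse (tolerance 0.01 reads, 100% of values). Libraries held 861047 to 5118507 such reads, and the deepest have the least counting error.

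limma 3.58.1 (R 4.3.3; lmFit, eBayes with trend) was run on log2(value + 1) for genes with a mean of at least 10, with Benjamini-Hochberg adjustment over all 12354 genes and a threshold of 0.05. Such log2 differences understate changes of low genes. edgeR 4.0.16 (quasi-likelihood) and DESeq2 1.42.0 on recovered reads were alternatives, beside other pseudocounts, minimum means, scaling, covariates, mice and a replicate block. Exon lengths and sequences came from GENCODE vM21, which held 18745 of 18762 gene identifiers. Named genes were the members, the 3 largest differences and 3 highest levels per kilobase in each pathway list, the 2 highest of each marker list, and the 5 genes most like *Sbspon* by each r. A marker gene that this rule also names, and the summed level of its list, are not reported here. The members and lists were chosen with earlier results of these data known. The p-values measure the spread between these mice. Other steps used Python 3.11.15, numpy 2.4.6, pandas 2.3.3, scipy 1.17.1 and matplotlib 3.10.9.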

Additional observations from a re-analysis of the deposited data

Results flagged for a closer look

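In 4 of the 12 sets of values (6 genes in 2 ages), 1 mouse lay far from the others of its age by Dixon's criterion. For independent sets of normally distributed values, chance meets it in about 1 of 20 sets, or 0.6 of 12. The sets here share mice, and the criterion was applied to normalized read counts without the log2 scale. Nothing is therefore read from 4 against 0.6. *Spon1* in young mouse 2 was at 79.8 normalized read counts, against 14.9 to 31.7 in the other young mice. *Thbs4* in the same mouse was at 42.8, against 5.10 to 13.1. *Spon2* in old mouse 5 was at 26.8, against 2.61 to 12.3 in the other old mice, and *Thbs3* in that mouse was at 45.0, against 4.47 to 20.9. Both mice carry letter A. *Sbspon* had no such value in either age.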

How the results depend on the processing

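Depth limits the low members most: *Spon2* rests on as few as 8 reads in a mouse. Between the ages 13 genes were called in all (12 of them higher in old mice). The count was 2 without the trend, 5 after rescaling by median ratios (80.0% of them higher, against 92.3%), 37 with the letter as a covariate, 3 in letter A alone, 98 in letter B alone, 8 in replicates 1 to 5, 57 in DESeq2 and 3 to 32 when 1 mouse was left out. The log2 difference of *Sbspon* between the ages, a description, stayed between 2.16 and 2.59 over mice left out and between 1.13 (letter A alone) and 3.38 (letter B alone) over all alternatives. Same-numbered young and old mice correlated at -0.56 to 0.61 in their deviations (mean 0.136, against -0.023 for different numbers). Pairs of the same letter averaged 0.35 and pairs of different letters -0.33. Same-numbered pairs are of both kinds, so that whether the numbers pair animals cannot be told. With the replicate block 19 genes were called, against 8 in the same replicates without it. The pathway lists, with no gene called, had 1 with the letter as a covariate (*Itgb3*), 2 in letter B alone (*Itgb3* and *Itga6*), 1 in DESeq2 (*Itgb3*) and 0 to 1 when 1 mouse was left out, the 1 without old mouse 5. *Itgb6* had -0.038 in letter B alone, against 0.47. Between the letters 4462 genes were called (29.2% higher in letter B), 2232 with a minimum mean of 20, and 2817 to 5014 when 1 mouse was left out, the lowest without young mouse 2. After rescaling by median ratios 59.5% of the calls were higher. The letter difference of *Sbspon*, -0.04 and never called, was 0.049 with a pseudocount of 5, 0.25 after rescaling and -0.33 to 0.23 when 1 mouse was left out. *Thbs1* and *Spon1* were called lower in letter B in all 22 alternatives. The causes of these shifts were not tested.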
